A study of Mus musculus with 4 samples.

Results

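The genes described here encode the nuclear-encoded subunits of respiratory complexes II to V, and cytochrome c, in mouse dorsal raphe nucleus. They were chosen by name, as every probe whose symbol in the series' probe table begins with Uqcr, Cox4 to Cox8 or Atp5, or is Sdha, Sdhb, Sdhc, Sdhd, Cycs or Cyc1. This gave 46 probes of 46 genes among 16383 genes compared. Of these, 43 encode subunits or cytochrome c. The other 3 carry a matching name only: Cox7a2l encodes a factor of respiratory supercomplexes, Cox4nb (now Emc8) a subunit of the endoplasmic reticulum membrane protein complex, and Atp5s (now Dmac2l) a protein once named coupling factor B.

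The study put 1 single-colour array on each of 4 groups of male C57BL/6J mice aged 10 weeks, with RNA pooled from 5 mice per array. The groups were stressed D2R-KO, which lack the dopamine D2 receptor, stressed D2LR-KO, which lack only its long form, and WT mice with and without stress. Stress was a forced swim of 6 min, repeated over 4 days, and the nucleus was collected 12 h after the final one. No array held a knockout without stress, so against non-stressed WT the knockouts differ in both stress and genotype. With 1 array per group no difference could be tested. The only error at hand comes from 48 control spots of 2 probes repeated on each array. Around each probe's mean, their log2 differences between arrays had an SD of 0.1 to 0.205. This SD covers scatter among spots, and neither mice nor shifts of a whole array.

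Complex II (succinate dehydrogenase) and complex III pass electrons from succinate and ubiquinol towards cytochrome c, a small soluble carrier between the mitochondrial membranes. Complex IV (cytochrome c oxidase) hands them to oxygen, and complex V (ATP synthase) uses the proton gradient to make ATP. Neurons draw most of their ATP from this chain. Complexes III, IV and V also contain subunits of the mitochondrial genome, which the name rule did not cover. Several subunits come in isoforms from separate genes, among them the c subunit of the ATP synthase ring, whose 3 genes encode the same mature protein.

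Promoters of these genes are known for sites of the transcription factors NRF1 and GABP (an ETS factor), which work with the coactivator PGC-1alpha, and of YY1, SP1 and CREB. The sequences below are RefSeq promoters in build GRCm38.p6, from 250 bases before to 50 after the annotated start, written 5′ to 3′ on the gene's strand. Shown first are those of 3 of the 4 members that were lowest in stressed WT relative to non-stressed WT, and then the 3 genes of ring subunit c, which differ from each other on that array. Capitals mark matches on either strand to GCGC and TGCGC with any 1 base between them (NRF1), CCGGAA (ETS), AAGATGGC (YY1), GGGCGG (SP1) and TGACGTCA (the cAMP response element, CRE). The CRE was added to the search after these sequences had been seen.
Cox5a, GRCm38.p6 chr9:57520982-57521281 (+ strand): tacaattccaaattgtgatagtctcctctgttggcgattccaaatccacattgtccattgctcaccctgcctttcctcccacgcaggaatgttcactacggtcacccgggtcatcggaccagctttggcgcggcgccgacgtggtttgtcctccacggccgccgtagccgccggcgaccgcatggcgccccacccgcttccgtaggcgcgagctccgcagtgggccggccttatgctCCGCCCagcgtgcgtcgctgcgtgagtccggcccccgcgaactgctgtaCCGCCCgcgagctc
Uqcrfs1, GRCm38.p6 chr13:30545267-30545566 (- strand): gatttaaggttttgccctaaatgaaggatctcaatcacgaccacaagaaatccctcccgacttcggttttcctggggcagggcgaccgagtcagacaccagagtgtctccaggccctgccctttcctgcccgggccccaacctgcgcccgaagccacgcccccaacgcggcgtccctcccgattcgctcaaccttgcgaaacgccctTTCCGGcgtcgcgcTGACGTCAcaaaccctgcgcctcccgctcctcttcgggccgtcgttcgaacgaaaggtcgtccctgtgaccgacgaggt
Cycs, GRCm38.p6 chr6:50566520-50566819 (- strand): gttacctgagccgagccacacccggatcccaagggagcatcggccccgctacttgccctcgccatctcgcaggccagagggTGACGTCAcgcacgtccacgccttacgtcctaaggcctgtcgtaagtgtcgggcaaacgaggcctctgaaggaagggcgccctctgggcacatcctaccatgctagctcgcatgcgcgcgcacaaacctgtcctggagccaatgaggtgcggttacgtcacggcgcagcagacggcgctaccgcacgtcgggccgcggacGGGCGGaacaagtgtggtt
Atp5g3, GRCm38.p6 chr2:73911277-73911576 (- strand): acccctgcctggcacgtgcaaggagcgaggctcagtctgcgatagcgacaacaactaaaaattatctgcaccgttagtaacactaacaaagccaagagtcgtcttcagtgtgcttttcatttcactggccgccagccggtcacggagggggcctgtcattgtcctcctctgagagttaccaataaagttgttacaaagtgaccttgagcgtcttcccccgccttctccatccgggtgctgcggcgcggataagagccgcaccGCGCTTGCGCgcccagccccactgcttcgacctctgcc
Atp5g2, GRCm38.p6 chr15:102670998-102671297 (- strand): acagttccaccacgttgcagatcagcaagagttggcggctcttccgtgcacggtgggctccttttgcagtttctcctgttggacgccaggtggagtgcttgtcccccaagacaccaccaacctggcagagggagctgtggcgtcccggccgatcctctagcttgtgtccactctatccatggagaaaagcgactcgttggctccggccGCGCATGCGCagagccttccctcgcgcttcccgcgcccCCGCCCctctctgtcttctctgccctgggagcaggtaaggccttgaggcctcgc
Atp5g1, GRCm38.p6 chr11:96075582-96075881 (- strand): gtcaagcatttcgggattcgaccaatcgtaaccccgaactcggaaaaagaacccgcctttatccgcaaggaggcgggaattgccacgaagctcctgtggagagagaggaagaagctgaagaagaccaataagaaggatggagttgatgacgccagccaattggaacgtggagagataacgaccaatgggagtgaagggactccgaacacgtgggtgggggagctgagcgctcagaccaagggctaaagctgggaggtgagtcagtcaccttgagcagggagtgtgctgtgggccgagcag
The genes of ring subunit c thus differ in these letters: Atp5g3 holds 1 NRF1 match, Atp5g2 holds 1 NRF1 and 1 SP1 match, and Atp5g1 holds none of the 5 motifs.

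For 34 of the 46 members the table held a promoter, 37 promoters in all. An NRF1 match stood in 10 of them (27%), against 7.56% of 15932 promoters of genes detected on the arrays and 4.6% of all 32851 promoters. An ETS match stood in 16 (43.2%), against 21.0% and 14.9% of those sets. YY1 had 3 (8.11%, against 3.43% and 2.75%) and SP1 14 (37.8%, against 53.3% and 35.7%). The CRE was found in 2 (5.41%, against 2.54% and 1.79%), namely Cycs and Uqcrfs1. Both of these sequences had been seen before the CRE was added to the search, so its excess was set by that choice. These are matches of letters and show no binding.

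**Figure D1:**
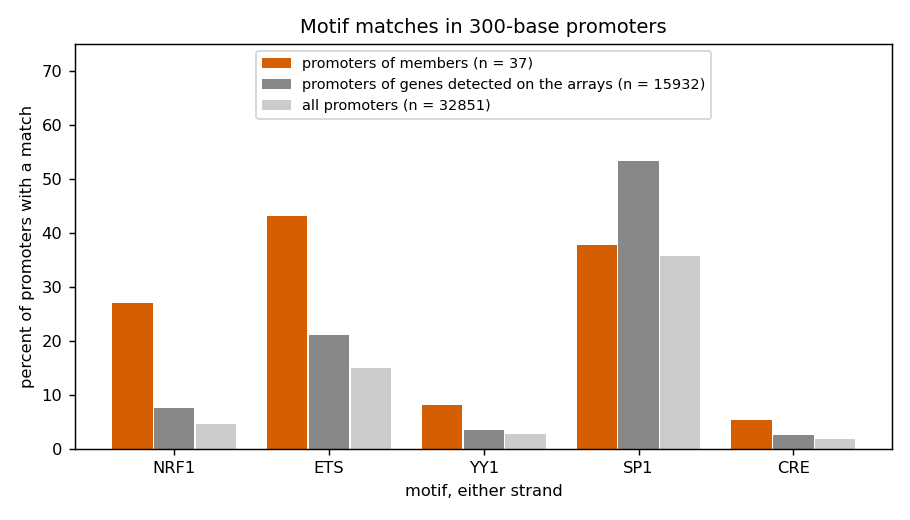
Percent of 300-base promoters with a match to each of 5 motifs (x axis), for 37 promoters of members, promoters of genes detected on the arrays and all promoters. NRF1 and ETS matches stood in 27% and 43.2% of member promoters, against 7.56% and 21.0% for detected genes, while SP1 matches were less common in member promoters (37.8%) than in those of detected genes (53.3%). The CRE bars are no independent comparison, as that motif was added after member sequences holding it had been seen.

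Levels are given as the authors' deposited intensities, a linear scale on which each array has a median of 25. Differences are log2 folds on the log2(signal + 50) scale after quantile normalization, which sets the 4 arrays to one distribution. These scales differ for bright probes: genes with a mean log2 signal of at least 8 had a median log2 fold for stressed WT against non-stressed WT of -0.02 after quantile normalization, -0.29 on the deposited scale and -0.47 with each array set to one median. Most members are bright, and 39 of the 46 passed that signal. On every array 45 members were above the detection limit, and Cox8c, the testis isoform of subunit 8, was detected on none, so it enters no count. The Uqcrq probe passed the limit only narrowly, with intensities of 2.3 for stressed WT, 2.1 for D2R-KO, 3.2 for D2LR-KO and 1.4 for non-stressed WT. A probe's brightness depends on its sequence, so levels of different genes are not compared.

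The stressed WT array stood apart from the other 3 arrays, for these genes and for the arrays at large. Its r across all genes was 0.966 with non-stressed WT, 0.958 with D2R-KO and 0.962 with D2LR-KO, against 0.99 to 0.994 among the other 3 arrays. Among the 45 detected members, 44 lay within 1.5-fold across the other 3 arrays, with a median range of 0.21 log2 units, and Atp5e (range 0.64) was the exception. That share, 97.8%, was near the 96.6% of all genes (median range 0.13) and the 92.9% of genes of mean log2 signal of at least 8 (median range 0.24). Stressed WT was below all 3 of them for 23 members (51.1%) and above all 3 for 16 (35.6%). Over all genes those shares were 37.7% and 40.2%, and over genes of mean log2 signal of at least 8 they were 42.2% and 38.4%. Every difference below that involves stressed WT rests on this single array, and whether it reflects the swim or the array cannot be told apart. In pooled tissue, fewer cells of a type and less RNA per cell cannot be told apart either.

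**Figure D2:**
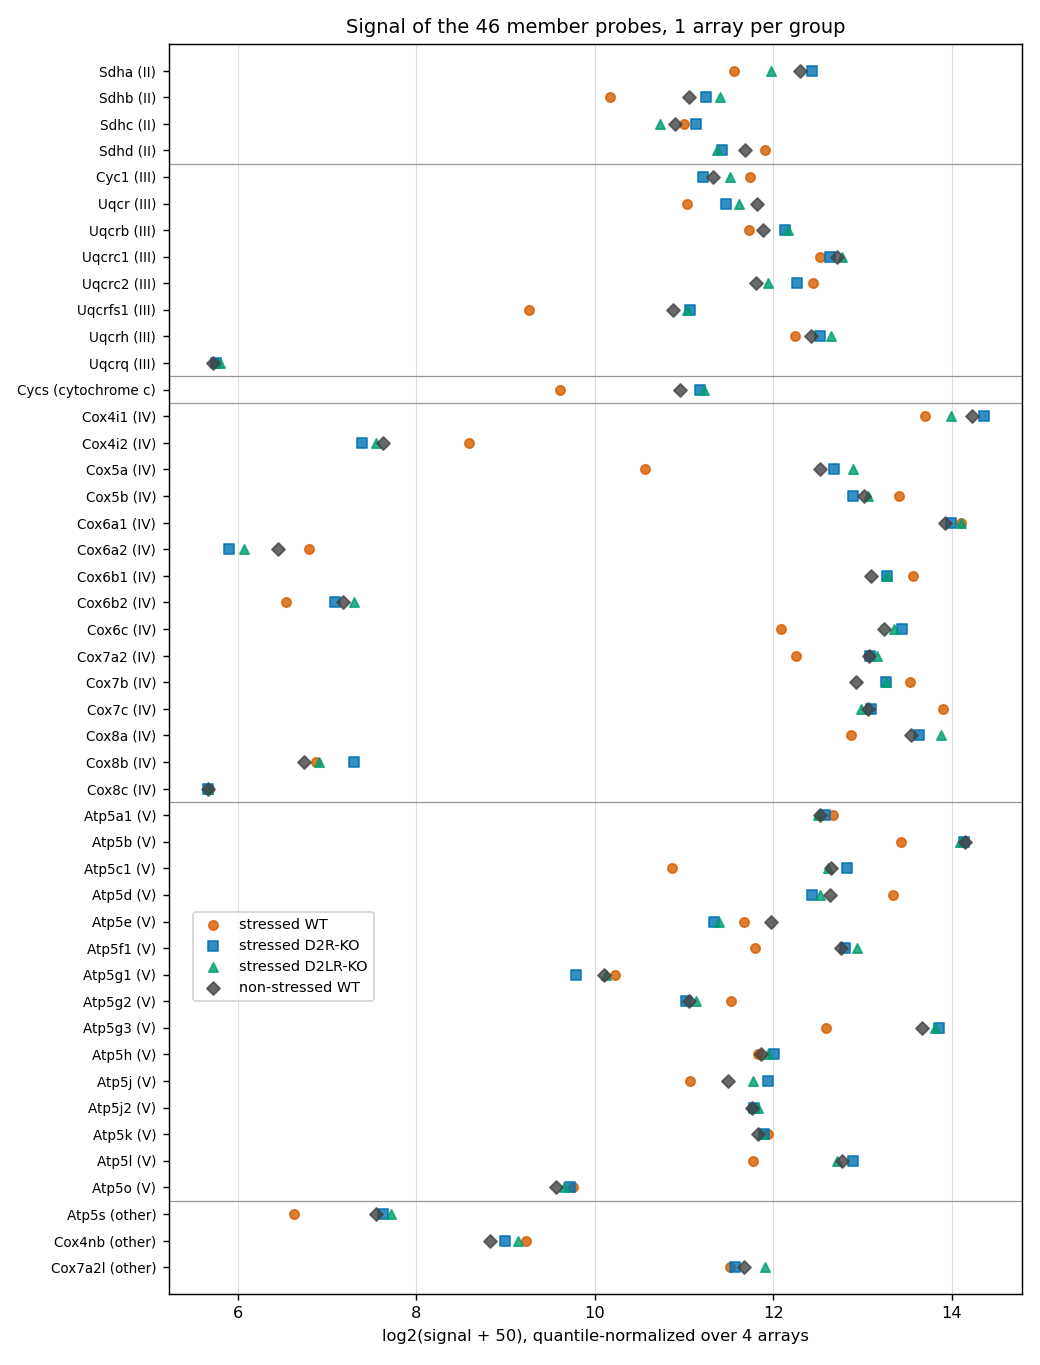
Signal on the log2(signal + 50) scale (x axis) of the 46 member probes (rows, by complex), with 1 symbol per array. The symbols of both knockouts and of non-stressed WT lie close together for most genes, while that of stressed WT lies apart to the left for genes such as Cox5a, Atp5c1, Uqcrfs1 and Cycs and to the right for Cox4i2 and Cox7c.

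The first comparison, of stressed WT with non-stressed WT, asks what differed with swimming in 1 genotype. Of 45 members 16 were at least 1.5-fold lower (35.6%, against 8.12% of all genes) and 5 at least 1.5-fold higher (11.1%, against 7.27%). Among genes of mean log2 signal of at least 8, where differences past 1.5-fold were more common, the shares were 16.8% lower and 12.7% higher, and 14 lower (35.9%) and 4 higher (10.3%) of 39 members. At least 2-fold lower were 7 members, against 2.15% of all genes and 5.36% of the brighter ones, and no member was 2-fold higher (1.46% of all genes). The members' median log2 fold was -0.15, beside 0.0 over all genes. The split of 5 higher and 16 lower became 1 and 23 with each array set to one median, 2 and 19 on the deposited scale, and 11 and 14 with the background taken around each spot. With that background the members counted were not all the same, as given below for single genes. The value around a spot also rose with the spot itself, with Spearman correlations of 0.878 to 0.959 on the 4 arrays. Members differed widely among themselves: the log2 folds ran between -1.97 and 0.96, with an SD over members of 0.717, beside 0.579 over the brighter genes.

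**Figure D3:**
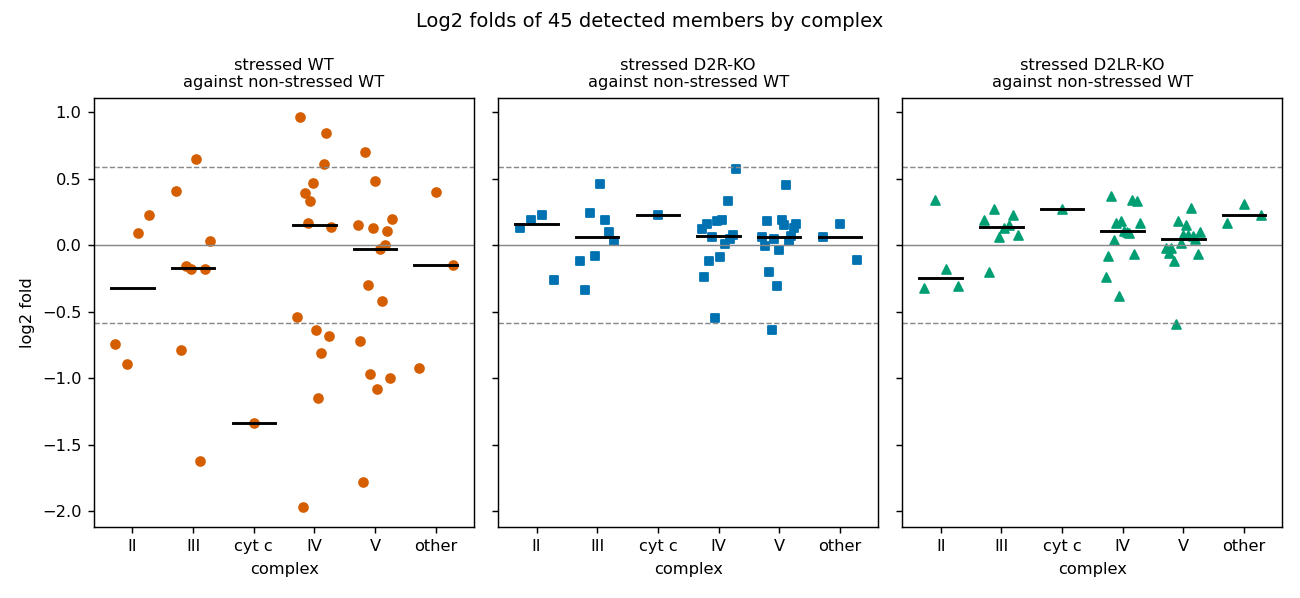
Log2 fold of each of the 45 detected members (points) against non-stressed WT, for stressed WT and both stressed knockouts, by complex (x axis). Solid black lines are medians and dashed lines mark 1.5-fold. In stressed WT the points spread between -1.97 and 0.96 within and across complexes, whereas in both knockouts only Atp5e in complex V passed 1.5-fold.

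In complex II, Sdha encodes the flavoprotein that oxidises succinate. Its intensity was 1355.1 for stressed WT, 3785.7 for D2R-KO, 2463.7 for D2LR-KO and 2919.2 for non-stressed WT. Sdhb, the iron-sulfur subunit, had 515.1 for stressed WT, 1609.1 for D2R-KO, 1661.5 for D2LR-KO and 1236.4 for non-stressed WT. Both catalytic subunits were thus dimmest on the stressed WT array, with log2 folds of -0.74 and -0.89 against non-stressed WT. The membrane anchors differed less. Sdhc had 912.5 for stressed WT, 1496.2 for D2R-KO, 1008.5 for D2LR-KO and 1108.7 for non-stressed WT. Sdhd had 1803.3 for stressed WT, 1842.1 for D2R-KO, 1617.8 for D2LR-KO and 1874.5 for non-stressed WT. Their log2 folds in stressed WT were 0.09 and 0.23, though on the deposited scale both were slightly lower there. If the background was taken around each spot, the log2 fold of Sdhb was 0.82, the other way, and that of Sdha was -0.49, short of 1.5-fold.

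In complex III the Rieske iron-sulfur protein gene Uqcrfs1 differed most. It had an intensity of 268.6 for stressed WT, 1423.8 for D2R-KO, 1252.7 for D2LR-KO and 1083.6 for non-stressed WT, and its log2 fold in stressed WT was -1.62. Uqcr (now Uqcr11), a small subunit, had 932.9 for stressed WT, 1912.9 for D2R-KO, 1932.8 for D2LR-KO and 2049.8 for non-stressed WT, with a log2 fold of -0.79. The core protein gene Uqcrc2 was higher there, with 2487.8 for stressed WT, 3302.9 for D2R-KO, 2392.8 for D2LR-KO and 2036.4 for non-stressed WT, and a log2 fold of 0.65. That fold was short of 1.5-fold on every other scale tried except the offset of 16, at 0.07 with each array set to one median, 0.29 on the deposited scale and 0.38 if the background was taken around each spot. The other 5 members of this complex were within 1.5-fold in stressed WT. Among them, Cyc1, which encodes cytochrome c1, had 1586.0 for stressed WT, 1571.9 for D2R-KO, 1789.5 for D2LR-KO and 1483.7 for non-stressed WT (log2 fold 0.41).

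Cycs encodes somatic cytochrome c, which carries electrons to complex IV and, once released from mitochondria, helps to start apoptosis through Apaf1. Its intensity was 347.4 for stressed WT, 1550.4 for D2R-KO, 1436.9 for D2LR-KO and 1147.0 for non-stressed WT. The stressed WT array was lowest, with a log2 fold of -1.34, and both knockout arrays were slightly above non-stressed WT (0.23 and 0.27). For stressed WT the fold was -0.40, short of 1.5-fold, if the background was taken around each spot. Of the partners of released cytochrome c, 1 of 5 measured genes passed 1.5-fold in stressed WT, Bcl2l1, an inhibitor of apoptosis, at 0.73. Over all genes 7.27% were higher past 1.5-fold there and 8.12% lower.

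Complex IV held the members furthest apart. Cox5a had 685.1 for stressed WT, 4633.0 for D2R-KO, 4702.3 for D2LR-KO and 3464.7 for non-stressed WT, the lowest log2 fold of all members (-1.97). With the background around each spot Cox5a was at -0.78 and no longer lowest, with Atp5l at -1.69 and Atp5c1 at -1.52. Cox5b, the gene of the other subunit 5 protein, had 5215.0 for stressed WT, 5289.6 for D2R-KO, 5323.5 for D2LR-KO and 4742.2 for non-stressed WT, and a log2 fold of 0.39. Cox6c, a small membrane subunit, had 2001.0 for stressed WT, 7165.2 for D2R-KO, 6519.1 for D2LR-KO and 5282.2 for non-stressed WT (log2 fold -1.15). Genes of this 1 enzyme thus ranged from much dimmer to slightly brighter in stressed WT. Cox7a2 (2212.4 for stressed WT, 5754.4 for D2R-KO, 5790.5 for D2LR-KO and 4887.7 for non-stressed WT) and Cox8a (3324.4 for stressed WT, 8038.6 for D2R-KO, 9330.7 for D2LR-KO and 7066.9 for non-stressed WT) were also lower there, at -0.81 and -0.68. Cox6c and Cox8a had log2 folds of 0.69 and 3.23, the other way, if the background was taken around each spot. Cox7c had 7478.0 for stressed WT, 5824.9 for D2R-KO, 5098.3 for D2LR-KO and 4884.1 for non-stressed WT, and was 1.5-fold higher or more in stressed WT (log2 fold 0.84). Cox7b had 5621.2 for stressed WT, 6435.5 for D2R-KO, 6202.5 for D2LR-KO and 4506.1 for non-stressed WT (log2 fold 0.61). Both depended on the processing. Cox7b was at 0.10 with each array set to one median, 0.32 on the deposited scale and 7.49 with the background around each spot. Cox7c was at 0.39, 0.61 and 0.11 under the same settings. Of 14 detected members of the complex, 5 were lower (35.7%) and 3 higher (21.4%) past 1.5-fold. Over all genes those shares were 8.12% and 7.27%, and over the brighter ones 16.8% and 12.7%.

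Isoforms were compared within each subunit, and some pairs differed in direction on the stressed WT array while others did not. Cox4i1, the common isoform of regulatory subunit 4, had 6504.1 for stressed WT, 13144.9 for D2R-KO, 9827.8 for D2LR-KO and 10078.4 for non-stressed WT (log2 fold -0.54 in stressed WT). Cox4i2, the isoform known from lung and from low oxygen, had 165.9 for stressed WT, 72.9 for D2R-KO, 80.1 for D2LR-KO and 87.1 for non-stressed WT, and its log2 fold of 0.96 was the highest of all members. With the background around each spot Cox4i2 was at 0.88, below Cox8a at 3.23 and Cox7b at 7.49. For subunit 6a, Cox6a1 stayed close on all arrays (9424.5 for stressed WT, 10596.6 for D2R-KO, 10717.6 for D2LR-KO and 9123.4 for non-stressed WT), while the muscle isoform Cox6a2 was dim throughout (34.1 for stressed WT, 5.4 for D2R-KO, 9.6 for D2LR-KO and 21.6 for non-stressed WT). Cox6a1 had a log2 fold of 0.17 in stressed WT. The log2 folds of Cox6a2 against non-stressed WT were 0.33 for stressed WT, -0.55 for D2R-KO and -0.38 for D2LR-KO. The other muscle isoform, Cox8b, was also dim (37.4 for stressed WT, 66.2 for D2R-KO, 40.7 for D2LR-KO and 33.1 for non-stressed WT), and brightest in D2R-KO at a log2 fold of 0.57, just short of 1.5-fold. Summed intensities of 9 skeletal and heart muscle markers differed little, at 62.8 for stressed WT, 65.6 for D2R-KO, 72.3 for D2LR-KO and 68.6 for non-stressed WT. All of these markers but Acta1 lay below the array median of 25 on every array, so their sums can show little. Acta1 had 16.5 for stressed WT, 28.2 for D2R-KO, 29.3 for D2LR-KO and 34.8 for non-stressed WT. In subunit 6b, Cox6b1 had 5669.0 for stressed WT, 6473.3 for D2R-KO, 6213.4 for D2LR-KO and 4941.1 for non-stressed WT, and the testis isoform Cox6b2 had 24.9 for stressed WT, 52.5 for D2R-KO, 62.9 for D2LR-KO and 56.0 for non-stressed WT (log2 folds 0.47 and -0.64 in stressed WT). Cox7a2l, related to Cox7a2 and no subunit, had 1314.1 for stressed WT, 2032.2 for D2R-KO, 2330.8 for D2LR-KO and 1868.2 for non-stressed WT, within 1.5-fold throughout.

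**Figure D4:**
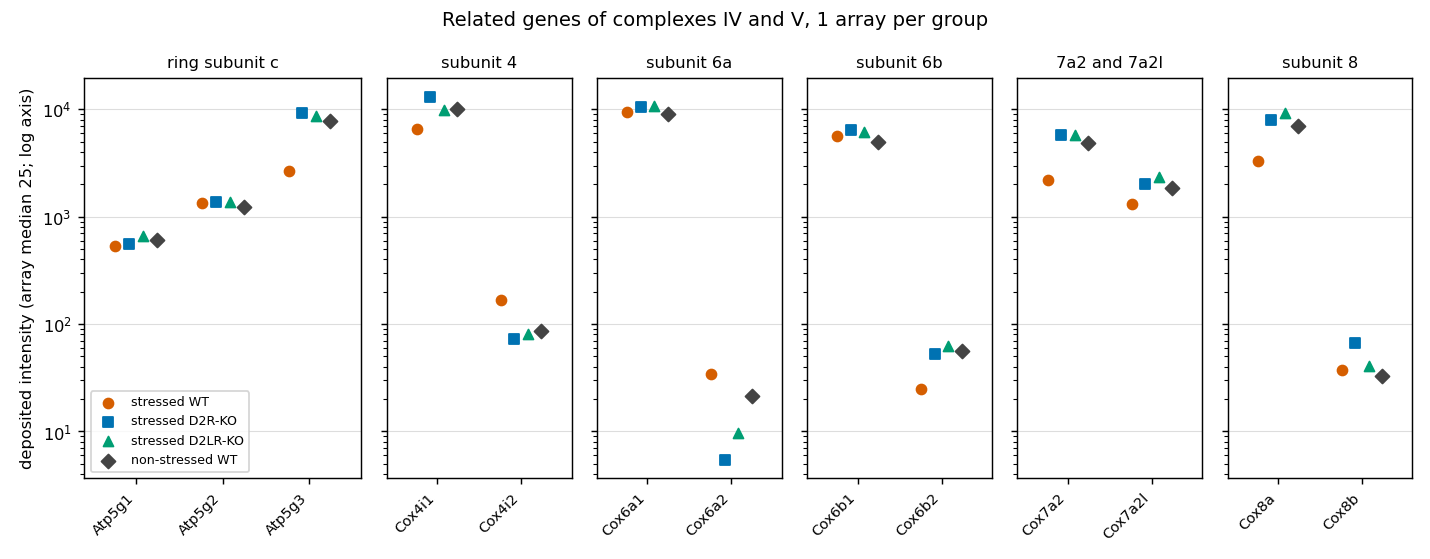
Deposited intensity on a log axis (array median 25) of genes for ring subunit c and for related complex IV subunits, with 1 symbol per array. In stressed WT Atp5g3, Cox4i1, Cox7a2 and Cox8a lie below the other arrays and Cox4i2 lies above them, while Atp5g1, Atp5g2, Cox6a1 and Cox6b1 differ little.

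In complex V, too, subunits of the rotor and the ring differed from each other. Atp5c1, the gamma subunit that turns inside the F1 head, had 841.3 for stressed WT, 5103.4 for D2R-KO, 3928.5 for D2LR-KO and 3710.8 for non-stressed WT (log2 fold -1.78). Atp5b, the catalytic beta subunit, had 5359.1 for stressed WT, 11654.5 for D2R-KO, 10336.6 for D2LR-KO and 9788.8 for non-stressed WT (log2 fold -0.72), whereas Atp5a1, the alpha subunit, was at 0.15. Atp5d, the delta subunit of the central stalk, had 4913.3 for stressed WT, 3782.6 for D2R-KO, 3619.9 for D2LR-KO and 3692.7 for non-stressed WT, and a log2 fold of 0.70. It was short of 1.5-fold with each array set to one median (0.19), with the background around each spot (0.18) and on the deposited scale (0.41). Of the ring genes, Atp5g3 had 2683.7 for stressed WT, 9321.8 for D2R-KO, 8693.4 for D2LR-KO and 7744.0 for non-stressed WT (log2 fold -1.08). Atp5g1 (539.0 for stressed WT, 554.1 for D2R-KO, 655.2 for D2LR-KO and 608.3 for non-stressed WT) and Atp5g2 (1331.9 for stressed WT, 1372.5 for D2R-KO, 1358.1 for D2LR-KO and 1236.6 for non-stressed WT) lay at 0.13 and 0.48, and on the deposited scale Atp5g1 was slightly lower in stressed WT. In the membrane part and the outer stalk, Atp5l had 1616.4 for stressed WT, 5298.8 for D2R-KO, 4147.2 for D2LR-KO and 4016.2 for non-stressed WT (log2 fold -1.0). Atp5f1, the stalk subunit b, had 1654.5 for stressed WT, 5007.0 for D2R-KO, 4962.4 for D2LR-KO and 3973.2 for non-stressed WT (-0.97). The remaining members were closer together: Atp5h, Atp5j2, Atp5k and Atp5o had log2 folds of -0.03, 0.00, 0.11 and 0.20 in stressed WT, and Atp5j was at -0.42. Of 15 members of complex V, 5 were lower (33.3%) and 1 was higher (6.67%) past 1.5-fold. Over all genes those shares were 8.12% and 7.27%, and over the brighter ones 16.8% and 12.7%.

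With the offset of 50 and quantile normalization, Atp5e was the 1 member lower past 1.5-fold in each knockout against non-stressed WT. This small subunit of the central stalk had 1492.2 for stressed WT, 1721.1 for D2R-KO, 1651.7 for D2LR-KO and 2308.3 for non-stressed WT. Its log2 folds were -0.30 for stressed WT, -0.64 for D2R-KO and -0.59 for D2LR-KO, so non-stressed WT was the brightest of the 4 arrays for it. On the deposited scale the folds of the knockouts were -0.42 and -0.48, short of 1.5-fold. That of D2R-KO was -0.53 with each array set to one median and -0.28 if the background was taken around each spot. That of D2LR-KO was -0.57 when the stressed WT array was left out of the normalization. With an offset of 16, 2 members were lower in each knockout.

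In D2R-KO against non-stressed WT no member was at least 1.5-fold higher (0.577% of all genes) and 1 was lower (2.22%, against 1.49% of all genes). The log2 folds ran between -0.64 and 0.57, with a median of 0.07 beside 0.01 over all genes, and 31 of 45 were above 0. Over all genes 8174 of 15607 were above 0 there, and of the brighter ones 2201 of 4105. In D2LR-KO against non-stressed WT likewise none was higher (0.745%) and 1 was lower (2.22%, against 1.41%). There the log2 folds ran between -0.59 and 0.37, with a median of 0.09 beside 0.0, and 31 of 45 were above 0. The same held for 7928 of 15574 genes over all and 2090 of 4105 brighter ones. These comparisons share the non-stressed WT array. The counts depended on the background: taken around each spot, 13 members were higher and 4 lower in D2R-KO, and 14 higher and 4 lower in D2LR-KO. On the deposited scale 3 were higher and 1 lower in D2R-KO, and 0 in either direction in D2LR-KO. Between the knockouts, D2LR-KO against D2R-KO, no member passed 1.5-fold in either direction (0.66% of all genes higher and 0.333% lower). The largest difference there was Sdha, at -0.45, with 2463.7 in D2LR-KO and 3785.7 in D2R-KO.

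The knockouts were also set against stressed WT, the comparison of genotypes under the same stress, which shares the stressed WT array with the comparison above. In D2R-KO 16 of 45 members were at least 1.5-fold higher (35.6%, against 9.33% of all genes and 19.3% of the brighter ones) and 4 lower (8.89%, against 8.64% and 15.6%). In D2LR-KO there were also 16 higher (against 8.72% and 17.3%) and 4 lower (against 8.2% and 15.1%). At least 2-fold higher were 9 in D2R-KO (2.71% of all genes) and 10 in D2LR-KO (2.62%), with Cox5a at 2.13 and 2.34, Uqcrfs1 at 1.81 and 1.77, Atp5c1 at 1.95 and 1.75 and Cycs at 1.58 and 1.61. Cox6c was at 1.34 and 1.25 and Atp5g3 at 1.26 and 1.23. Sdhb and Atp5f1 also passed 2-fold in both, at 1.08 and 1.23 and at 1.01 and 1.15. Atp5l did so in D2R-KO, at 1.13, and was at 0.93 in D2LR-KO. Cox4i2 was the 1 member at least 2-fold lower in each, at -1.20 and -1.03 (2.57% and 1.83% of all genes). Atp5s, with 91.8 in D2R-KO and 94.2 in D2LR-KO against 28.1 in stressed WT, and Cox8a passed 2-fold in D2LR-KO, at 1.09 and 1.01. With the background around each spot, Cox8a in D2R-KO was at -0.31 in place of 0.76, Sdhb in D2R-KO at 0.27 and Cox6c in D2LR-KO at 0.56, all short of 1.5-fold higher. Of the lower members, Atp5d and Cox7c were short of 1.5-fold in both knockouts on the deposited scale and with each array set to one median. For D2R-KO the split of 16 higher and 4 lower became 26 and 2 both on the deposited scale and with each array set to one median, and for D2LR-KO it became 22 and 2 and then 21 and 2. Brighter genes as a whole shifted with these scalings, to medians of 0.47 and 0.54 in D2R-KO and 0.33 and 0.28 in D2LR-KO, and the members' medians lay above them by 0.21 and 0.18 in D2R-KO and by 0.16 and 0.17 in D2LR-KO. The members' medians were 0.14 and 0.11, beside -0.01 over all genes in each.

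**Figure D5:**
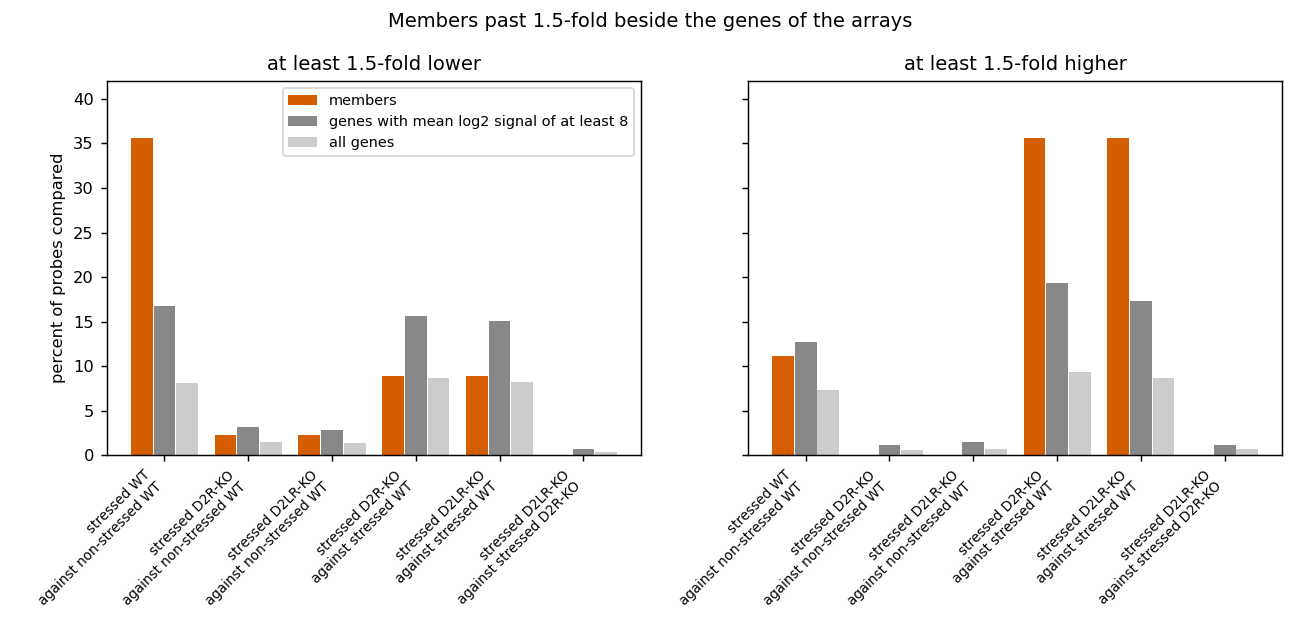
Percent of probes at least 1.5-fold lower (left) and higher (right) in each of 6 comparisons (x axis), for members, genes with a mean log2 signal of at least 8 and all genes. Members exceed both gene sets on the lower side of stressed WT against non-stressed WT (35.6%) and on the higher side of both knockouts against stressed WT (35.6% each), and not in the 3 comparisons without stressed WT.

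Other genes of the pathway, listed by function, were also spread to both sides in stressed WT against non-stressed WT. Of 28 measured assembly factors 5 were at least 1.5-fold higher and 5 lower (17.9% each, median -0.15). Over all genes those shares were 7.27% and 8.12%, and over the brighter ones 12.7% and 16.8%. The higher assembly factors were Sdhaf4, Uqcc1, Atpaf1, Atpaf2 and Fmc1, and the lower ones Sdhaf3, Cox11, Coa3, Coa5 and Tmem70. Tmem70, needed to assemble complex V, had 114.2 for stressed WT, 367.9 for D2R-KO, 406.0 for D2LR-KO and 409.9 for non-stressed WT (log2 fold -1.42), and Sdhaf3, a complex II factor, was at -1.06. Atpaf1 and Atpaf2, chaperones of the F1 head, were higher there at 0.97 and 0.89. Cox11, which delivers copper to complex IV, was at -0.82 in stressed WT and 1.01 in D2LR-KO against stressed WT. In both knockouts against non-stressed WT no assembly factor passed 1.5-fold. Few genes of any kind did so, with 0.577% of all genes higher and 1.49% lower in D2R-KO, and 0.745% and 1.41% in D2LR-KO.

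Among 12 regulators of mitochondrial gene expression 3 were higher and 2 lower past 1.5-fold in stressed WT (median -0.12). The higher ones were Ppargc1b, Pprc1 and Gabpa. Over all genes 7.27% were higher past 1.5-fold there and 8.12% lower. With 12 genes on 1 array, these counts are too few to read as a result about regulators. Ppargc1a, which encodes PGC-1alpha, had 71.4 for stressed WT, 329.7 for D2R-KO, 229.7 for D2LR-KO and 258.5 for non-stressed WT (log2 fold -1.37). Esrra, the receptor ERR-alpha with which it acts, had 46.8 for stressed WT, 160.1 for D2R-KO, 174.3 for D2LR-KO and 107.2 for non-stressed WT (-0.75). Gabpa, the DNA-binding subunit of GABP, was higher at 0.80, and Nrf1 differed little, at 0.09. By promoter, an NRF1 match stood in 3 of 16 promoters of members lower in stressed WT and in 7 of 17 promoters of members within 1.5-fold. The ETS match stood in 6 and 10 of these promoters, and none of the 4 promoters of higher members held any of the 5 motifs. Those 4 belong to 3 genes, and the higher members Uqcrc2 and Cox4i2 had no promoter. Over promoters of detected genes, 7.56% held an NRF1 match and 21.0% an ETS match, so 0 of 4 is too few to read. The lower members with an NRF1 match include Atp5c1 (log2 fold -1.78), whose promoters are not printed above.

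Of 9 carriers, channels and kinases that move ATP and phosphate, 2 were higher, Vdac2 and Ckmt2, and 2 lower in stressed WT. That is 22.2% each, against 7.27% of all genes higher and 8.12% lower. Slc25a3, the mitochondrial phosphate carrier, had 1130.4 for stressed WT, 5484.7 for D2R-KO, 4073.5 for D2LR-KO and 2799.6 for non-stressed WT (log2 fold -0.93). It was also higher in D2R-KO than in non-stressed WT, at 0.74. Ckmt1, mitochondrial creatine kinase, was at -0.60 in stressed WT and at 1.09 in D2R-KO against stressed WT. None of 5 genes for the ATP synthase inhibitor Atpif1 and for uncoupling proteins passed 1.5-fold. In the oxygen-dependent list 2 of 5 were higher in stressed WT (40.0%, against 7.27% of all genes). Ndufa4l2, a paralog of the complex IV subunit Ndufa4 known from low oxygen, had 1483.7 for stressed WT, 694.7 for D2R-KO, 830.1 for D2LR-KO and 527.6 for non-stressed WT (log2 fold 1.78), and Hif1a was at 0.70. The other 3 were at -0.03 (Higd1a), -0.43 (Higd2a) and -0.14 (Ndufa4), and the list's median was -0.03.

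Cell type markers also differed on the stressed WT array, and their part in these results was not tested. Against non-stressed WT, 7.27% of all genes were higher past 1.5-fold on that array and 8.12% lower. The 4 endothelial markers summed to 736.9 for stressed WT, 1805.5 for D2R-KO, 1905.5 for D2LR-KO and 1703.8 for non-stressed WT, and 3 of the 4 were lower past 1.5-fold in stressed WT. Of 5 neuronal markers 1 was higher and 1 lower, namely Nefl at 0.60 and Snap25 at -1.01, with sums of 9184.3 for stressed WT, 15869.0 for D2R-KO, 11440.9 for D2LR-KO and 12309.3 for non-stressed WT. The 6 astrocyte markers summed to 1922.4 for stressed WT, 3998.3 for D2R-KO, 4068.8 for D2LR-KO and 4219.9 for non-stressed WT. Of these, 2 were lower past 1.5-fold in stressed WT, Gja1 at -1.08 and Glul at -2.52, and the other 4 lay between -0.27 and 0.24. The 4 oligodendrocyte markers summed to 14284.7 for stressed WT, 19068.7 for D2R-KO, 19096.5 for D2LR-KO and 14612.0 for non-stressed WT, and 1 of them, Mag, was higher in stressed WT, at 1.15. All 4 choroid plexus markers were lower past 1.5-fold in stressed WT, with sums of 5746.3 for stressed WT, 38.1 for D2R-KO, 213.0 for D2LR-KO and 13028.4 for non-stressed WT. All 4 were also lower past 1.5-fold in each knockout against non-stressed WT (1.49% and 1.41% of all genes). The array that stood apart for them was thus non-stressed WT. Of these sums, Ttr alone gave 5720.2 for stressed WT, 20.3 for D2R-KO, 193.1 for D2LR-KO and 12884.0 for non-stressed WT. Smooth muscle markers summed to 279.3 for stressed WT, 688.0 for D2R-KO, 1882.8 for D2LR-KO and 461.8 for non-stressed WT, and pituitary markers to 114.1 for stressed WT, 575.1 for D2R-KO, 90.0 for D2LR-KO and 83.7 for non-stressed WT. Microglial markers summed to 408.3 for stressed WT, 502.1 for D2R-KO, 553.7 for D2LR-KO and 475.9 for non-stressed WT. None of these 5 passed 1.5-fold against non-stressed WT on any stressed array, while against stressed WT P2ry12 was at 0.93 in D2LR-KO and Csf1r at -0.75 in D2R-KO. The labelled tissue, the dorsal raphe nucleus, is known for serotonergic neurons. Their 8 markers summed to 2151.1 for stressed WT, 3679.4 for D2R-KO, 3867.6 for D2LR-KO and 2579.1 for non-stressed WT. In stressed WT against non-stressed WT 4 of them were above 0 and 4 below (median 0.09), and 1 passed 1.5-fold, Tph2, the enzyme of neuronal serotonin synthesis, at -0.63. Tph2 had 10.7 for stressed WT, 264.6 for D2R-KO, 151.5 for D2LR-KO and 31.4 for non-stressed WT, above the detection limit on all 4 arrays.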

How the data were processed

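Per the labels' protocols, amplified RNA labelled with Cy5 was hybridised to Toray arrays; the authors scanned each at 3 gains, per the file headers, but no header or label says how they joined the scans. The deposited scanner values are median spot intensities at 635 nm without background subtraction. The deposited value table holds linear intensities which, judged from the values, equal the spot intensity minus 1 constant and divided by 1 factor per array, with a median of 25.

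From the scanner values, limma 3.58.1 (R 4.3.3) applied normexp with blank spots as negative controls and an offset of 50, then log2 and quantile normalization over 4 arrays. A spot was detected above the blank mean plus 2 SD, and 91.0 to 91.6% of 23473 probes were. Of the probes, 16631 had 1 symbol and 6842 none here, 9 with a flagged spot were left out, and the brightest probe was kept for 229 genes with several. Symbols came from the platform annotation and 3883 were updated through RefSeq. A gene was counted past 1.5-fold or 2-fold if detected on at least 1 of both arrays compared. The log2(signal + 50) scale understates the folds of dim genes. Since each group has 1 array, no test was run, and that number sets the precision.

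On simulated arrays for stressed WT against non-stressed WT (23474 probes), 36 of 50 probes set to -1 on the log2 scale passed 1.5-fold. So did 48 of 50 set to 1, 48 of 50 set to -2 and 50 of 50 set to 2. Of 23274 unchanged probes 0 passed. These counts hold for the simulated noise only, so the 0 gives no error rate for calls on the real arrays. On the real arrays 15.4% of all genes passed 1.5-fold in either direction in this comparison.

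The members and lists were chosen with earlier results of these data known. Members at least 2-fold different in a comparison, isoforms, and those of complex II and cytochrome c were named by rule, and other pathway genes if 2-fold different. The other members named, the other genes of pathway lists and the marker genes were named after their values were seen. Alternatives were another scaling, another background, the deposited scale, an offset of 16 and stricter detection; a signal minimum of 8 and normalization without the stressed WT array were added after seeing the data.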

Additional observations from a re-analysis of the deposited data

How the results depend on the processing

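With 1 array per group nothing here is tested, and depth of evidence is limited to 1 pool per group. A value counted as moved if it shifted, in either direction, by at least the control-spot SD of its comparison (0.1 to 0.205). Such a shift includes folds that grew and is by itself no loss of the call. Among 63 called single-gene values, an offset of 16 in place of 50 moved 9, the deposited scale 60, one median per array 55 and the background around each spot 43, with 4 more reversed there. Those 4 were, in stressed WT against non-stressed WT, Sdhb (0.82), Cox6c (0.69) and Cox8a (3.23) and, in D2R-KO against stressed WT, Cox8a (-0.31). The value around each spot was itself closely tied to the spot, with Spearman correlations of 0.878 to 0.959 over the probes of each array. The cause of the reversals was not tested. No paired analysis was possible because each group has 1 array.

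With one median per array, stressed WT against non-stressed WT had 1 member higher and a median of -0.67, D2R-KO against non-stressed WT 1 higher and 0 lower, D2R-KO against stressed WT 26 higher, 2 lower and a median of 0.72, D2LR-KO against stressed WT 2 lower and a median of 0.46, and between D2LR-KO and D2R-KO 3 lower and a median of -0.20. On the deposited scale, stressed WT against non-stressed WT had 2 higher and a median of -0.46, D2R-KO against non-stressed WT 3 higher and 0.30, D2LR-KO against non-stressed WT 0 lower, D2R-KO against stressed WT 26 higher, 2 lower and 0.68, D2LR-KO against stressed WT 2 lower and 0.49, and between the knockouts 1 lower. With the background around each spot, stressed WT against non-stressed WT had 11 higher, D2R-KO against non-stressed WT 13 higher, 4 lower and 0.25, D2LR-KO against non-stressed WT 14 higher and 4 lower, D2R-KO against stressed WT a median of 0.24, D2LR-KO against stressed WT 0.37, and between the knockouts 5 higher and 3 lower. With an offset of 16, D2R-KO against non-stressed WT had 1 higher and 2 lower, and D2LR-KO against non-stressed WT 2 lower. At a mean log2 signal of at least 8, both knockouts had 2 lower against stressed WT. Normalized without the stressed WT array, D2R-KO had 1 higher and D2LR-KO 0 lower against non-stressed WT. The cause of these shifts was not tested. The count of members lower in stressed WT against non-stressed WT, 16, became 14 to 23 across the other scalings and backgrounds. These were not always the same members. With the background around each spot, Sdhb, Cox6c and Cox8a were reversed, and Sdha (-0.49) and Cycs (-0.40) were short of 1.5-fold.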
